A study of Mus musculus with 32 samples.

Results

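Expression of 10 heat shock chaperone genes, of 19938 genes with a probe set of their own, was measured in blood and cerebellum of 2 mouse models of autism spectrum disorders. The genes were Hspa8, Hspa5, Hsph1, Dnajb1, Dnaja1, Bag3, Hsp90aa1, Hspb1, Hspd1 and Hspe1. A probe set, the group of probes that together measure one transcript, was taken for a gene when that gene was the only symbol in the array's annotation. Where a gene had several, the one with the highest mean log2 intensity over all 32 arrays was used, and all 10 genes had at least 1.

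The arrays were Affymetrix Mouse Gene 1.0 ST, 1 for each tissue of each mouse. The Fmr1 experiment held 5 Fmr1-KO mice and 5 WT littermates on a C57BL/6 congenic background. The Tsc2 experiment held 3 Tsc2+/- mice and 3 WT littermates on a mixed 129/SvJae and C57BL/6J background. All were young adults with no treatment described, and whole blood and cerebellum came from the same mouse. Fmr1 encodes FMRP, an RNA-binding protein that controls translation and is lost in fragile X syndrome. Tsc2 encodes tuberin, which restrains the growth kinase mTOR and is mutated in tuberous sclerosis. Both alleles are carried by every cell of the body, and Tsc2+/- mice keep 1 intact copy because loss of both is lethal in the embryo. The labels call the mice female and the study calls them male. The Y-linked gene Eif2s3y gave at least 226 in every blood array and at least 403 in every cerebellum array. Xist, a transcript of female cells, gave at most 62.6 in blood and 105.7 in cerebellum, so both genes read as male.

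Chaperones bind unfolded proteins and either hold them in solution or fold them with energy from ATP. Hsp70 proteins are loaded by J-domain partners and unloaded by nucleotide exchange factors, Hsp90 finishes the folding of kinases and receptors, small heat shock proteins hold unfolding clients, and Hsp60 with its lid Hsp10 forms a folding chamber in mitochondria. Under heat or proteotoxic stress, the transcription factor HSF1 binds inverted repeats of GAA in the promoters of many of these genes. In the endoplasmic reticulum (ER), unfolded proteins instead activate ATF6, which acts through the ER stress response element. Neurons keep a high constitutive level of several chaperones, and in the mouse cerebellum Hspb1 protein is known from zones of Purkinje cells.

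The promoters of these genes show the letters that such factors read. RefSeq promoters of GRCm38.p6, from 250 bases before to 50 bases after each start site, were at hand for 8 of the 10 genes, and for Hspa8 and Hsp90aa1 none was used. Both strands were searched for GAANNTTC, for TTCNNGAA, for the longer GAANNTTCNNGAA (which contains both shorter ones), and for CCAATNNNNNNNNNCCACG, the ER stress response element. The 5 stretches below are examples and do not hold every match. Matches are in capitals and run 5′ to 3′ on the strand of the gene.
Hspe1, chr1:55088053-55088082, plus strand: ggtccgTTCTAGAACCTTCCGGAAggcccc
Hsph1, chr5:149636288-149636306, minus strand: tgcagaTTCTGGAAAGTTC
Hspb1, chr5:135887794-135887853, plus strand: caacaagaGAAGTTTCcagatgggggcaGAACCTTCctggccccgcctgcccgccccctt
Dnaja1, chr4:40722318-40722377, plus strand: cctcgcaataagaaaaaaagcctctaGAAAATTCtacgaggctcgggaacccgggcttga
Hspa5, chr2:34772005-34772064, plus strand: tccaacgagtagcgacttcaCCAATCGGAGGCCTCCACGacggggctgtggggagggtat

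The Hspe1 stretch holds 4 alternating repeats and lies upstream of Hspe1. Hspd1 is transcribed away from Hspe1 and has 2 start sites in RefSeq. For the start site that lies 216 bases from that of Hspe1, the stretch is between the genes and in the Hspd1 promoter. The other start site lies 95 bases inside Hspe1, so that the genes overlap and the stretch is within Hspd1. The Hsph1 stretch lies after both start sites of its gene, with the longer match at positions 37 and 16 from them. An Hsph1 match to TTCNNGAA before the start sites, TTCTCGAA, is not shown, nor is GAAGTTTC of Bag3. GAANNTTC occurred in a promoter of 6 of the 8 genes (Hsph1, Dnaja1, Hspb1, Hspd1, Hspe1 and Bag3) and in 7.86% of 32851 mouse promoters. For each motif a gene with several start sites was counted when any of its promoters matched. The percentages count each promoter singly, so the gene counts and the percentages are not in the same unit. TTCNNGAA occurred for 3 of the 8 genes (Hsph1, Hspd1 and Hspe1) and in 8.52% of all promoters. The longer form was in the same 3 genes' promoters and in 0.603% of all. The ER stress response element was found for Hspa5, 1 of the 8 genes, and in 0.119% of all promoters. Among 72 other chaperone genes with a promoter, the same 4 motifs occurred in 11, 8, 2 and 6. These matches describe letters in a window and say nothing of whether a factor was bound in these tissues.

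The targeted genes were read first. Fmr1 gave 169 to 263 in Fmr1-KO blood against 335 to 660 in WT blood, and 142 to 306 against 832 to 917 in cerebellum. Tsc2 gave 621 to 890 in Tsc2+/- blood against 731 to 1008 in WT, and 713 to 999.5 against 1110 to 1176 in cerebellum, so only the cerebellum groups did not overlap. Markers of the main cell types matched the labelled tissues. The summed intensity of granule cell markers was 23380 to 34544 in cerebellum and 123 to 530 in blood, and that of erythroid markers was at most 415 in cerebellum and at least 23652 in blood. Sums of Purkinje cell, astrocyte and oligodendrocyte markers were likewise higher in every cerebellum array than in any blood array, and those of neutrophil, T cell, B cell and platelet markers were higher in every blood array. Choroid plexus markers, 5 genes, were uneven, with sums of 14624 to 20113 in cerebella of the Fmr1 experiment but 877 to 16276 in those of the Tsc2 experiment, the lowest of which was below the highest blood value, 896. The array that stood apart was the cerebellum of Fmr1-KO mouse 1, which had the highest array median (257, against at most 233 elsewhere), a median of 178 over 1015 olfactory receptor genes, and a correlation of 0.882 with the rest of its group. In blood, Fmr1-KO mouse 5 and Fmr1 WT mouse 5 had the lowest mean over the 10 chaperones, 8.68 and 8.66 on the log2 scale.

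Of the 10 chaperones, 8 were higher in cerebellum than in blood in 16 of 16 mice, and they belong to each compartment represented: cytosol (Hspa8, Hsph1, Dnaja1, Hsp90aa1, Hspb1), ER (Hspa5) and mitochondria (Hspd1, Hspe1). The other two, Dnajb1 and Bag3, were higher in cerebellum in 8 and in 5 of the 16. In limma fits of tissue and genotype within each experiment, 9 of the 10 genes passed an adjusted p under 0.05 among the mice of the Fmr1 model, and 8 did so among those of the Tsc2 model. So many genes differ between these tissues that the background was 71.8% and 57.4% of 35556 probe sets. As higher in cerebellum, 8 of the 10 genes passed in each experiment, where 51.8% and 31% of all probe sets did. The share of all probe sets that were higher in cerebellum in every mouse was not counted. The median log2 difference of the 10 chaperones, cerebellum minus blood, was 1.37 and 0.82, against 0.52 and 0.03 over all probe sets. In RNA from a whole tissue, fewer cells of a type and less RNA per cell cannot be told apart.

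**Figure D1:**
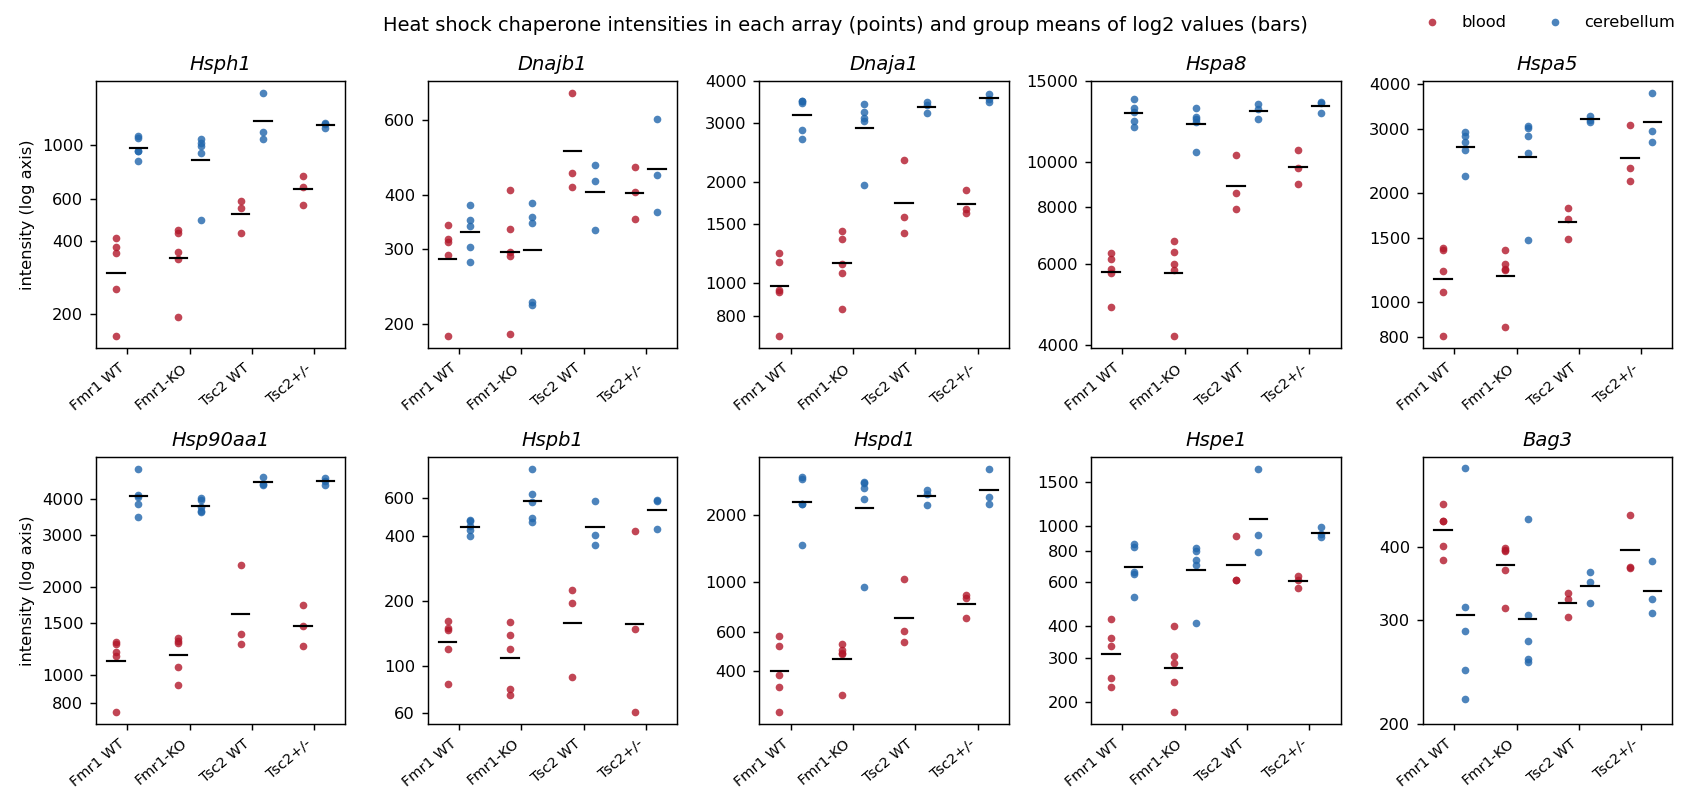
Intensity (log axis) of each of the 10 chaperones in every array, by group, with blood in red, cerebellum in blue and bars at the mean of the log2 values. For 8 genes cerebellum lies above blood within every mouse, though over all arrays only Hsp90aa1 shows no overlap of the tissues, Dnajb1 and Bag3 mix, and blood of the Tsc2 experiment lies above blood of the Fmr1 experiment for Hspa8, Hspa5 and Hspe1 with no overlap.

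Hspa8, the constitutive cytosolic Hsp70 (probe set 10584572, gene at chr9:40801276-40805202), gave 6377, 6012, 5821, 6748 and 4179 in Fmr1-KO blood and 6345, 6162, 5861, 5731 and 4841 in Fmr1 WT blood, in the order of mice 1 to 5. In blood of the other model it gave 8946, 10634 and 9698 in Tsc2+/- mice and 7899, 8566 and 10382 in their WT mice. Its lowest cerebellum value in any group was 10526 and its highest 13719. Hspa8 was 2.16-fold higher in cerebellum in the Fmr1 experiment (log2 difference 1.11, SE 0.08, limma adjusted p 3.46e-10) and 1.41-fold higher in the Tsc2 experiment (0.49, SE 0.09, adjusted p 0.000545). Cerebellum values overlapped between the experiments, while blood of all 6 mice of the Tsc2 experiment was above blood of all 10 mice of the Fmr1 experiment.

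Hspa5, the ER Hsp70 also called BiP (probe set 10471586, chr2:34772090-34776529), gave 1224, 1273, 1234, 1392 and 849 in Fmr1-KO blood and 1387, 1218, 1409, 1061 and 802 in Fmr1 WT blood. Tsc2+/- blood gave 2159, 2347 and 3091, and Tsc2 WT blood gave 1689, 1490.2 and 1821. All 6 mice of the Tsc2 experiment were above all 10 mice of the Fmr1 experiment. In cerebellum the values were 1482, 3061, 3021, 2867 and 2579 in Fmr1-KO, 2229, 2955, 2624, 2883 and 2763 in Fmr1 WT, 2972, 2774 and 3779.8 in Tsc2+/- and 3151, 3262 and 3178 in Tsc2 WT mice. The cerebellum was 2.23-fold higher than blood in the Fmr1 experiment (1.16, SE 0.14) and 1.56-fold higher in the Tsc2 experiment (0.64, SE 0.15, limma adjusted p 0.00299).

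Hsph1, the Hsp110 nucleotide exchange factor that helps Hsp70 pull aggregates apart (probe set 10535904, chr5:149616843-149636498), gave 434, 337, 361, 447 and 195 in Fmr1-KO blood and 412, 379, 359.8, 254 and 162 in Fmr1 WT blood. Mouse 5 was the lowest of both groups. Tsc2+/- blood gave 746, 674 and 568, and Tsc2 WT blood gave 590.1, 435 and 550.3. Cerebellum gave 489, 933, 1061, 994 and 1020.3 in Fmr1-KO mice, where mouse 1 was far below the other 4, and 862, 1089, 1071, 944 and 943 in their WT mice. In the Tsc2 experiment it gave 1174, 1235 and 1226 in Tsc2+/- and 1135, 1065 and 1643 in WT cerebellum. Its tissue difference was 1.53 on the log2 scale (SE 0.19, 2.90-fold, limma adjusted p 7.41e-07) in the Fmr1 experiment and 1.08 (SE 0.14, 2.11-fold, adjusted p 4.77e-05) in the Tsc2 experiment.

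The J-domain partners differed from each other. Dnaja1 (probe set 10521587, chr4:40722468-40734965) gave 1139.6, 1074, 1359, 1435 and 838 in Fmr1-KO blood, 1161, 1234, 956, 944 and 696 in Fmr1 WT blood, 1663, 1889.5 and 1619.6 in Tsc2+/- blood and 1407, 1580.1 and 2329 in Tsc2 WT blood. Its cerebellum values ran from 1967, in Fmr1-KO mouse 1, to 3655. Dnaja1 was 2.86-fold higher in cerebellum in the Fmr1 experiment (1.52, SE 0.13) and 2.00-fold higher in the Tsc2 experiment (1.00, SE 0.12). A dimmer Dnaja1 probe set gave log2 differences of 2.96 and 2.45, so the size, not the direction, depended on the probe set.

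Dnajb1, the J-domain protein that accompanies Hsp70 in the heat shock response (probe set 10573198, chr8:83608175-83612653), showed no such rise. It gave 333, 289, 295, 413 and 189 in Fmr1-KO blood and 315, 342, 289.6, 310.5 and 187 in Fmr1 WT blood, with 408, 465 and 353 in Tsc2+/- blood and 419, 451 and 695 in Tsc2 WT blood. Its cerebellum values overlapped these, from 221 to 383 in the Fmr1 experiment and from 332 to 605 in the Tsc2 experiment. The tissue difference was 0.12 (95% interval -0.20 to 0.43) and -0.07 (-0.47 to 0.34) on the log2 scale. After each array was centred on its median, the Fmr1 value turned to -0.43 (limma adjusted p 0.0332), and after a second quantile normalization to -0.49 (adjusted p 0.0122), so its direction rested on the scaling.

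Bag3, the co-chaperone that links Hsp70 to autophagy of damaged proteins (probe set 10557992, chr7:128523583-128546981), went the other way in the Fmr1 experiment. It gave 398, 365, 394, 394 and 315 in Fmr1-KO blood and 443, 401, 473, 443 and 380.2 in Fmr1 WT blood, against 446, 255, 306, 276 and 258 and 544, 315, 220.4, 287 and 247 in the cerebella of the same mice. Mouse 1 of each genotype had the highest cerebellum value. Cerebellum was 1.31-fold lower (-0.39, SE 0.14, limma adjusted p 0.0174), a call that was lost without Fmr1 WT mouse 3 (-0.31) and that grew to -0.94 with arrays centred on the median. In the Tsc2 experiment blood gave 368, 369 and 453 in Tsc2+/- and 333, 304 and 326 in WT mice, cerebellum gave 326, 378 and 308 and 321, 349 and 362, and the difference was -0.07 (-0.29 to 0.16). A second quantile normalization moved it to -0.34 (adjusted p 0.00889).

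Hsp90aa1, the alpha form of cytosolic Hsp90 (probe set 10378848, chr12:110691036-110696395), gave 1341, 1065, 1310.2, 1283 and 923 in Fmr1-KO blood, 1272, 1197, 1297, 1161 and 747 in Fmr1 WT blood, 1256, 1739.8 and 1468 in Tsc2+/- blood and 1381, 1279 and 2380.3 in Tsc2 WT blood. Cerebellum held it between 3480 and 5070 in every mouse, well above every blood value. It was 3.44-fold higher in cerebellum in the Fmr1 experiment (1.78, SE 0.10, limma adjusted p 1.11e-11) and 2.97-fold higher in the Tsc2 experiment (1.57, SE 0.15).

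Hspb1, a small heat shock protein that holds unfolding proteins and guards actin (probe set 10408928, chr5:135887919-135889563), had low and variable values in blood. They were 120.0, 160.0, 78.2, 139 and 72.7 in Fmr1-KO, 119.9, 146, 160.4, 149.5 and 82.3 in Fmr1 WT, 61.0, 422 and 148 in Tsc2+/- and 89.0, 196 and 225 in Tsc2 WT mice. Cerebellum gave 819, 485, 466, 626 and 576 in Fmr1-KO, 445, 424, 471, 399 and 475 in Fmr1 WT, 431, 588 and 581 in Tsc2+/- and 361, 402 and 581 in Tsc2 WT mice. The fold was 4.30 in the Fmr1 experiment (2.10, SE 0.17) and 3.07 in the Tsc2 experiment (1.62, SE 0.41, limma adjusted p 0.00539). Olfactory receptor genes had array medians of 52.0 to 77.1 in blood, which is close to the lowest Hspb1 values there, so these folds rest on values close to background.

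The mitochondrial chaperonin pair moved by different amounts. Hspd1, Hsp60 (probe set 10375240, chr1:55077833-55088243), gave 475, 484, 496, 529.6 and 314 in Fmr1-KO blood and 577, 382, 521, 340.5 and 263 in Fmr1 WT blood, against 950.2, 2652, 2366, 2773 and 2813 and 1467, 2248, 2975, 2249.8 and 2899 in cerebellum. The Tsc2 experiment gave 689, 853 and 878 in Tsc2+/- blood, 604, 538 and 1032 in WT blood, 2414, 2237 and 3219.9 in Tsc2+/- cerebellum and 2218, 2498 and 2593 in WT cerebellum. Of the probe sets used for the 10 genes it had the largest tissue difference, though the dimmer Dnaja1 probe set exceeded it. It was 5.23-fold in the Fmr1 experiment (2.39, SE 0.21, limma adjusted p 3.51e-09) and 3.36-fold in the Tsc2 experiment (1.75, SE 0.17). The ratio within a mouse ran from 2.00, in Fmr1-KO mouse 1, to 11.0.

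Hspe1, the Hsp10 lid (probe set 10346303, chr1:55088148-55091317), gave 241, 287, 303, 401 and 183 in Fmr1-KO blood, 429, 333, 359, 249 and 229.7 in Fmr1 WT blood, 636, 612 and 569.9 in Tsc2+/- blood and 614, 917 and 614 in Tsc2 WT blood. Cerebellum gave 413, 733, 699.8, 817 and 797 in Fmr1-KO, 521, 657, 826, 644 and 851 in Fmr1 WT, 989.9, 929.8 and 905 in Tsc2+/- and 926, 1694 and 791 in Tsc2 WT mice. The tissue difference was 1.22 (SE 0.16, 2.33-fold) in the Fmr1 experiment and 0.62 (SE 0.18, 1.54-fold, limma adjusted p 0.0106) in the Tsc2 experiment. Centred on the array median, the Tsc2 value was 0.43 and no longer passed (adjusted p 0.0733).

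**Figure D2:**
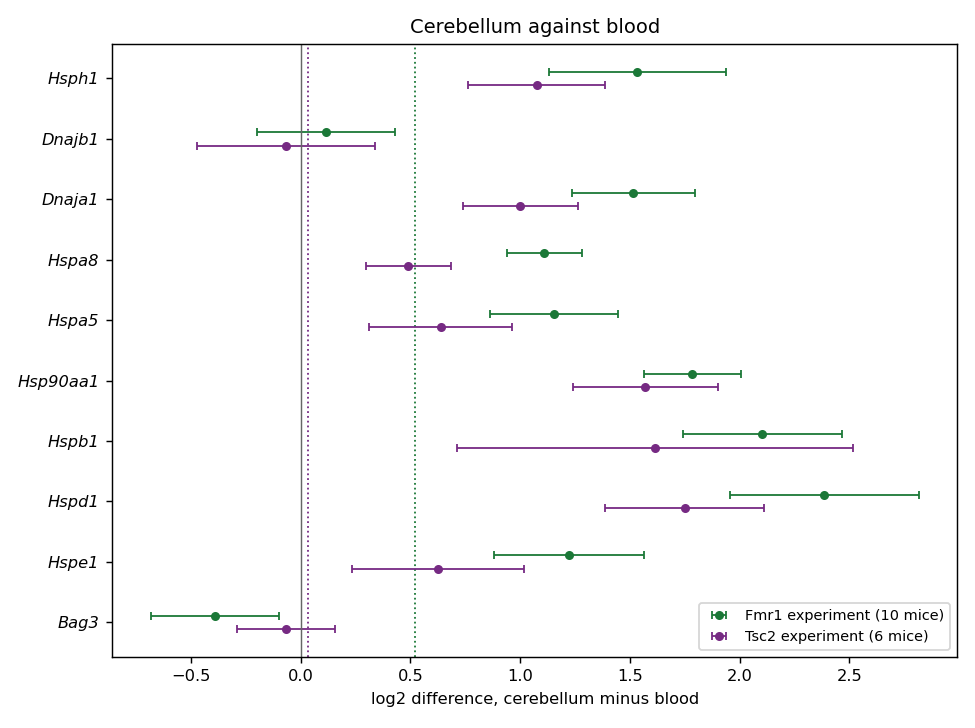
Log2 difference, cerebellum minus blood, of each chaperone in the Fmr1 experiment (green, 10 mice) and the Tsc2 experiment (purple, 6 mice), with 95% intervals from the limma fits and dotted lines at the medians of all probe sets, 0.52 and 0.03. Hspd1, Hspb1 and Hsp90aa1 lie farthest to the right, Bag3 lies to the left, and the sign of Dnajb1 turns in the Fmr1 experiment when arrays are rescaled.

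Of 86 other measured chaperone genes in 9 lists, 64 were higher and 7 lower in cerebellum at an adjusted p under 0.05 in the Fmr1 experiment, where 51.8% of all probe sets were higher and 20% lower. The Tsc2 experiment gave 49 higher and 8 lower, where 31% of all probe sets were higher and 26.4% lower. In both experiments 46 were higher and 3 lower. Their median log2 differences were 0.99 and 0.56, against 0.52 and 0.03 over all probe sets. The largest rises were those of Cryab, the alpha-B crystallin small heat shock protein (5.87 in the Fmr1 and 5.85 in the Tsc2 experiment), Dnajc6, the auxilin that uncoats clathrin vesicles (5.61 and 4.64), Hspa12a (5.09 and 4.37) and Hspb8, a partner of Bag3 (3.07 and 3.26). The 3 genes lower in cerebellum in both were Dnaja4 (-2.12 and -1.71), Atf6, the ER stress sensor (-0.77 and -0.88), and Hspb7 (-0.52 and -0.39). All 6 mitochondrial protein quality genes were higher in cerebellum in both experiments, and 9 of 10 Hsp70 family genes were higher in each. ER folding genes split, with 12 higher and 1 lower in the Fmr1 experiment and 4 higher and 4 lower of 15 in the Tsc2 experiment. J-domain genes gave 14 higher and 3 lower of 20 in the former and 8 higher and 2 lower in the latter, and small heat shock proteins gave 2 higher and 1 lower of 7 in each.

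Neither mutation moved a chaperone past either threshold. Over both tissues, 0 of the 10 genes passed an adjusted p under 0.05 or an unadjusted p under 0.01 in limma fits of Fmr1-KO against WT mice (background 0.00281% and 0.304% of probe sets) or of Tsc2+/- against WT mice (0% and 0.436%), and none had an unadjusted p under 0.05 (2.73% and 2.86%). The differences lay between -0.11 and 0.08 for Fmr1-KO and between -0.20 and 0.28 for Tsc2+/- on the log2 scale, and the smallest adjusted p was 0.978 and 0.999. Within a tissue, 0 passed either threshold in Fmr1-KO blood (background 0.00844% adjusted, 0.582% unadjusted), Fmr1-KO cerebellum (0% and 0.197%), Tsc2+/- blood (0% and 0.298%) and Tsc2+/- cerebellum (0.0253% and 1.12%). At an unadjusted p under 0.05 stood 1 gene in Fmr1-KO cerebellum (Hspb1, background 1.66%), 1 in Tsc2+/- blood (Hspa5, 2.14%) and 0 in Fmr1-KO blood (3.5%) and Tsc2+/- cerebellum (4.94%). Of the 86 other chaperone genes, 0 passed an unadjusted p under 0.01 in any of these 6 comparisons. The fits could have missed moderate changes. Among probe sets with a mean log2 of at least 7, simulated 1.5-fold changes passed an unadjusted p under 0.01 in 68% of cases for Fmr1-KO blood. For Tsc2+/- blood the share was 41%.

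**Figure D3:**
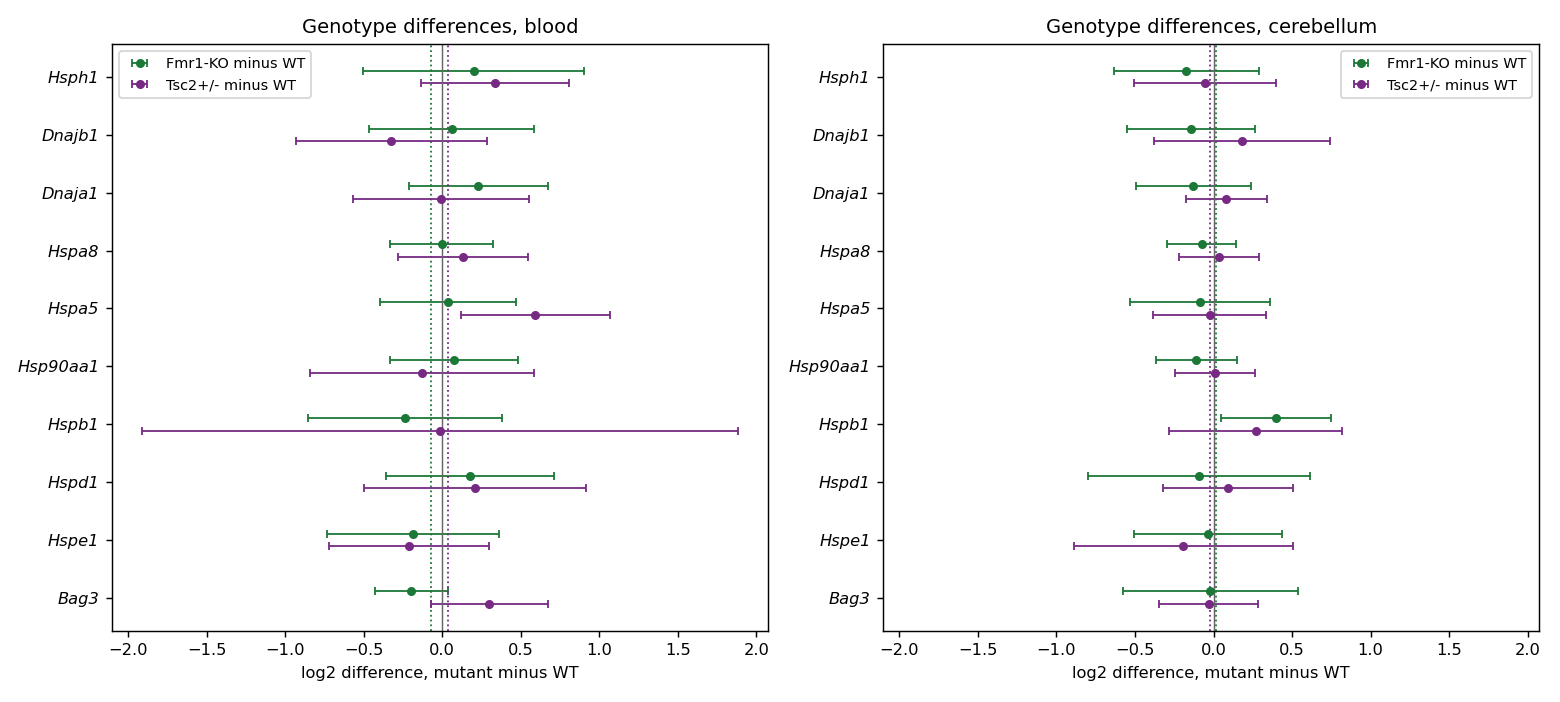
Log2 difference, mutant minus WT, of each chaperone in blood (left) and cerebellum (right) for Fmr1-KO (green) and Tsc2+/- (purple), with 95% intervals from the limma fits and dotted lines at the medians of all probe sets. All but 2 intervals cross 0, those of Hspa5 in Tsc2+/- blood and Hspb1 in Fmr1-KO cerebellum.

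In Fmr1-KO blood the 10 differences ran from -0.24 (Hspb1) to 0.23 (Dnaja1), with a median of 0.05 against -0.07 over all probe sets. The 95% interval was narrowest for Bag3 (-0.43 to 0.03) and wide for Hsph1 (-0.51 to 0.90). The median turned with the mice that were low in blood, being 0.16 without Fmr1-KO mouse 5 and -0.08 without Fmr1 WT mouse 5. Bag3 came nearest to a difference, with values of 315 to 398 in Fmr1-KO and 380.2 to 473 in WT blood that overlapped (exact permutation p 0.0556).

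In Fmr1-KO cerebellum 9 of the 10 genes were lower than in WT, by at most 0.17 on the log2 scale. The 1 that was higher was Hspb1, and 53.8% of all probe sets were higher. Without Fmr1-KO mouse 1, the array that stood apart, 6 of the 10 were higher and the median moved from -0.09 to 0.02, so the shared lower sign rested on that array. Hspb1 was 1.32-fold higher in Fmr1-KO cerebellum (0.40, 95% interval 0.05 to 0.75, exact permutation p 0.0238, limma adjusted p 0.999), with values that overlapped those of WT cerebellum. Without mouse 1, whose value of 819 was the highest, the difference was 0.27.

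In Tsc2+/- blood the differences ran from -0.32 (Dnajb1) to 0.59 (Hspa5). Hspa5 was above every WT mouse in all 3 Tsc2+/- mice, 1.51-fold higher (0.59, 95% interval 0.12 to 1.07), and Bag3 was above every WT mouse as well, 1.23-fold higher (0.30, -0.07 to 0.67). With 3 mice against 3, an exact permutation test cannot go below 0.1, which both genes reached, and groups stood apart in this direction in 4.36% of all probe sets. Hspa5 without Tsc2+/- mouse 3, its highest value, was 0.44 higher. The widest interval was that of Hspb1 (-1.91 to 1.88), whose 3 Tsc2+/- values spread from 61.0 to 422. In Tsc2+/- cerebellum no gene stood apart, and the differences ran from -0.19 (Hspe1) to 0.27 (Hspb1).

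Whether a genotype effect differed between the models was tested as an interaction within each tissue. In blood, 1 of the 10 genes passed an unadjusted p under 0.01 (background 0.509%) and 0 the adjusted threshold (0.00281%). That gene was Bag3, lower in Fmr1-KO and higher in Tsc2+/- blood, with a difference of effects of 0.50 on the log2 scale (SE 0.16, limma adjusted p 1.00). It no longer passed under 6 other settings of the fit, or when any 1 of 11 of the 16 mice was left out. In cerebellum 0 passed either threshold (background 0.487% and 0.00844%) and 0 had an unadjusted p under 0.05 (2.23%).

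Most of the 10 chaperones gave higher values in blood of the Tsc2 experiment than in blood of the Fmr1 experiment. Between Tsc2 WT and Fmr1 WT blood, 9 of the 10 genes were higher, as were 64.3% of all probe sets, and Bag3 was lower. The median difference was 0.71 on the log2 scale, against 0.22 over all probe sets. In the limma fit, 8 genes had an unadjusted p under 0.05, 2 passed 0.01 (Hspe1 and Hspa8), and 0 passed an adjusted p under 0.05, where the backgrounds were 29% at 0.05, 12% at 0.01 and 0.132% adjusted. Under 5 other settings of the fit, 2 to 6 of the 10 genes passed the adjusted threshold, along with 7.04% to 24.2% of all probe sets tested. The backgrounds of mixed 129/SvJae and C57BL/6J against C57BL/6 mice cannot be told apart here from anything else that differed between the experiments.

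**Figure D4:**
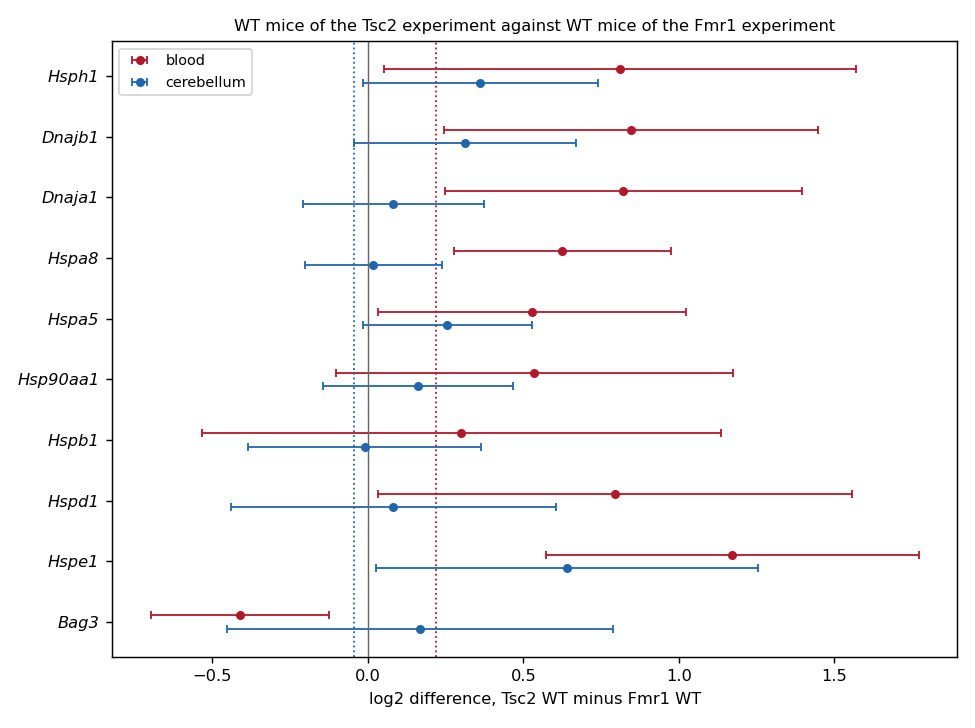
Log2 difference, Tsc2 WT minus Fmr1 WT, of each chaperone in blood (red) and cerebellum (blue), 3 against 5 mice, with 95% intervals from the limma fits and dotted lines at the medians of all probe sets, 0.22 and -0.04. In blood 7 genes have intervals above 0 and Bag3 has one below 0, and in cerebellum only the interval of Hspe1 lies above 0.

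Hspe1 had the largest WT difference in blood, 2.25-fold (1.17, SE 0.26, limma adjusted p 0.0675), with 614 to 917 in Tsc2 WT against 229.7 to 429 in Fmr1 WT mice. Hspa8 was 1.54-fold higher (0.63, SE 0.15, adjusted p 0.0681). Dnajb1 was 1.80-fold higher (0.85, SE 0.26), Dnaja1 1.77-fold (0.82, SE 0.25), Hsph1 1.75-fold (0.81, SE 0.32), Hspd1 1.74-fold (0.80, SE 0.33) and Hspa5 1.44-fold (0.53, SE 0.21). Hsp90aa1 (0.54) and Hspb1 (0.30) had intervals that crossed 0. Bag3 was 1.33-fold lower (-0.41, SE 0.12, limma adjusted p 0.0856).

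In all 3 Tsc2 WT mice 6 genes were higher than in all 5 Fmr1 WT mice (Hsph1, Dnajb1, Dnaja1, Hspa8, Hspa5 and Hspe1), a pattern of 18.3% of all probe sets. Bag3 was lower in all, a pattern of 5.77%. The exact permutation p was 0.0179, the smallest that 3 against 5 mice allow, for Dnajb1, Dnaja1, Hspa8, Hspe1 and Bag3. The count of 2 genes at an unadjusted p under 0.01 fell to 0 without Tsc2 WT mouse 2 and to 1 without Tsc2 WT mouse 3, while 9 of 10 genes stayed higher without either.

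The mutants of the models were compared in the same way, an alternative chosen after seeing the data. Between Tsc2+/- and Fmr1-KO blood, 10 of 10 genes were higher, with a median log2 difference of 0.67 against 0.38 over all probe sets. The share of all probe sets that were higher was not counted here. In the limma fit 4 passed an unadjusted p under 0.01 (background 26.1%) and 5 an adjusted p under 0.05 (background 29.3%). Those 5 were Hspe1 (1.15, limma adjusted p 0.0143), Hspa5 (1.09, 0.0099), Hsph1 (0.95, 0.0431), Hspd1 (0.83, 0.0202) and Hspa8 (0.76, 0.0183). Bag3, lower between the WT groups, differed by 0.09 here. With the genotypes put together, Hspa8 (7899 to 10634 against 4179 to 6748), Hspa5 (1490 to 3091 against 802 to 1409) and Hspe1 (569.9 to 917 against 183 to 429) were higher in all 6 Tsc2 mice than in all 10 Fmr1 mice. That held for 13.6% of all probe sets, and the reverse, seen for none of the 10 genes, for 2.97%.

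In cerebellum, 9 of the 10 genes were higher in Tsc2 WT than in Fmr1 WT mice, as were 44.1% of all probe sets. The median of the 10 genes was 0.16 against -0.04 over all probe sets. In the limma fit 0 passed an unadjusted p under 0.01 (background 1.29%) or the adjusted threshold (0.00562%). The only gene at an unadjusted p under 0.05 (background 8.19%) was Hspe1, which differed by 0.64 (95% interval 0.03 to 1.26, limma adjusted p 0.558), while Hspa8 differed by 0.02 (-0.20 to 0.24). Hspa5, 0.26 higher, was the only gene of the 10 whose WT groups stood apart (exact permutation p 0.0357), upward as in 2.53% of all probe sets, where 2.45% stood apart downward. Between Tsc2+/- and Fmr1-KO cerebellum 0 passed (background 1.21% and 0.00281%), and 2, Dnajb1 and Hsp90aa1, had an unadjusted p under 0.05 (6.5%). Summed choroid plexus markers were 877 to 15623.5 in Tsc2 WT and 15111 to 19777 in Fmr1 WT cerebellum, and their part in these differences was not tested. No gene separated all 6 Tsc2 from all 10 Fmr1 cerebella, which 0.253% of probe sets did upward and 0.16% downward.

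The difference between tissues was itself tested, which was also chosen after seeing the data. The WT difference in blood exceeded that in cerebellum for 9 of 10 genes, by a median of 0.49 on the log2 scale against 0.32 over all probe sets, with 1 at an unadjusted p under 0.01 (background 7.91%) and 0 at the adjusted threshold (0.63%). The 1 gene was Hspa8 (0.61, SE 0.16, limma adjusted p 0.0892). This count is close to the share over all probe sets, and a larger difference in blood was not shown for the chaperones.

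Blood cell markers moved with the same comparison. Over all mice, the summed intensity of 5 T cell markers was 5456 to 8829 in blood of the Fmr1 experiment and 10575 to 24191 in the Tsc2 experiment, and that of 4 B cell markers was 9435 to 16549 against 16652 to 25885. Erythroid markers, 3 genes, went the other way, with 35265 to 44909 against 23652 to 31135. Sums of 4 platelet markers were 32612 to 39406 against 1633 to 32839.6, and those of 6 neutrophil markers overlapped. The part of these cells in the chaperone differences was not tested.

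Of the 86 other chaperone genes, 64 were higher in Tsc2 WT blood, with a median of 0.62, where 64.3% of all probe sets were higher. At an unadjusted p under 0.01, 28 passed as higher and 1 as lower, against 9.43% and 2.55% of all probe sets, and 0 passed the adjusted threshold. The 28 included 6 of 8 subunits of CCT, the cytosolic chaperonin that folds actin and tubulin, 6 of 15 co-chaperones of Hsp70 and Hsp90, 5 of 15 ER folding genes, 4 of 6 mitochondrial protein quality genes, 3 of 20 J-domain genes, 2 of 10 Hsp70 family genes and 2 of 2 Hsp90 family genes, with 0 of 7 small heat shock proteins and 0 of 3 heat shock factors. The largest were Cct3 (1.19, SE 0.22), Hspa14 (1.01, SE 0.23), the CCT subunit Tcp1 (0.98, SE 0.24) and Trap1, the mitochondrial Hsp90 (0.97, SE 0.23). The gene that was lower was the J-domain gene Dnajb2 (-1.10, SE 0.24). In WT cerebellum 74 of the 86 were higher, with a median of 0.12, where 44.1% of all probe sets were higher, and 0 passed.

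Within groups the median spread of the chaperones was above that of the typical probe set in both tissues. The SD of log2 intensity within groups had a median of 0.34 over the 10 genes in blood and 0.30 in cerebellum, against 0.27 and 0.25 over all probe sets with a mean log2 of at least 7. In blood it ran from 0.13 (Bag3) to 0.74 (Hspb1), and in cerebellum from 0.09 (Hspa8) to 0.47 (Hspd1).

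Whether relations of the chaperones with Hsph1 passed depended on single mice. After group means were subtracted, the deviation of Hsph1 was correlated with those of the other 9 genes over 16 mice in each tissue, 18 relations in all. In blood 7 passed a permutation p adjusted over the 18 by Benjamini-Hochberg under 0.05. Pearson's r was 0.80 for Dnajb1 (rho 0.67), 0.78 for Hspa5 (0.56), 0.76 for Hspa8 (0.66), 0.74 for Dnaja1 (0.72), 0.73 for Hspd1 (0.61) and 0.67 for Hsp90aa1 (0.56), each with an adjusted permutation p of 0.0207, and 0.68 for Hspe1 (0.63, adjusted permutation p 0.0406). Bag3 (0.57, adjusted permutation p 0.0683) and Hspb1 (0.22) did not pass. By rho, 3 passed in blood (Dnajb1, Dnaja1 and Hspa8, adjusted permutation p 0.0425 each).

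In blood 0 relations passed when Fmr1-KO mouse 5, Fmr1 WT mouse 4 or Fmr1 WT mouse 5 was left out, and 0 after a second quantile normalization. Without the 2 mice whose Hsph1 lay farthest from the median, Fmr1 WT mouse 5 and Fmr1-KO mouse 5, no r in blood exceeded 0.48. The 7 relations that had passed then had r of 0.35 to 0.48. Leaving out the mice most extreme in Hsph1 narrows its range and lowers r in any case, in either tissue. Within the Fmr1 experiment, which holds both mice, r was 0.65 to 0.95 over 10 mice, and within the Tsc2 experiment it was -0.56 to 0.30 over 6 mice. Arrays also share their scaling, and the median r with Hsph1 over 13092 probe sets in blood was 0.29. Of those probe sets 25.7% had r over 0.5, as did every chaperone of the 9 but Hspb1.

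**Figure D5:**
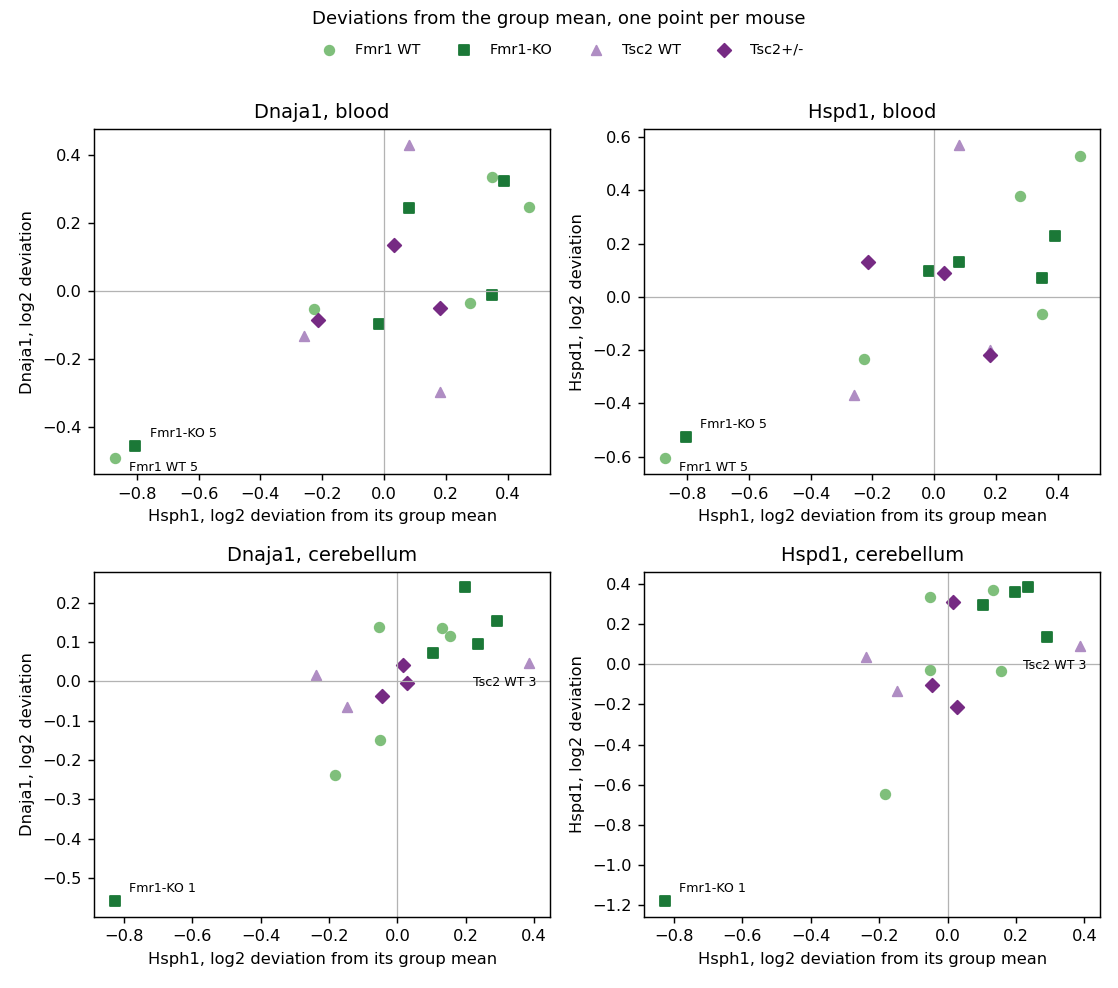
Log2 deviation of Dnaja1 (left) and Hspd1 (right) from the group mean against that of Hsph1, in blood (top) and cerebellum (bottom), 1 point per mouse and 1 marker per group. The named mice are the 2 per tissue that were left out, and in blood r without them was 0.44 for Dnaja1 and 0.47 for Hspd1.

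In cerebellum, r passed for Dnaja1 (0.86, rho 0.71, adjusted permutation p 0.0207) and Hspd1 (0.80, rho 0.57, adjusted permutation p 0.0390) and not for Hspa5 (0.78, adjusted permutation p 0.0683). Without Fmr1-KO mouse 1 and Tsc2 WT mouse 3, r was 0.72 for Dnaja1, 0.58 for Hspd1 and 0.53 for Hspa5. Within the Fmr1 experiment these were 0.93, 0.89 and 0.92, and within the Tsc2 experiment 0.55, 0.24 and -0.03. Bag3 (-0.53) and Hspb1 (-0.26) had negative r in cerebellum, and neither passed. In cerebellum 0 relations passed without Fmr1-KO mouse 1, Fmr1-KO mouse 5 or Fmr1 WT mouse 4, and 1 after a second quantile normalization. The median r over 15406 probe sets was 0.11, and 30.1% of them had r over 0.5. Of the 9 chaperones only Dnaja1, Hspd1 and Hspa5 did, so r of this size was not particular to chaperones.

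The genes whose deviations were most like those of Hsph1 were outside the chaperone lists. In blood they were Gpr65 (r 0.93), Reg3g, Scgb3a1, Maea, Entpd5, Chad, Lrrc26 and Gabrp (r 0.88), and without the 2 low mice their r was 0.69 to 0.80. In cerebellum they were Snord49a (0.97), Zfp512, Kif21a, Kifc3, Sash1, Flywch1, Mpp5 and Pakap (0.96), with 0.87 to 0.93 without the 2 mice. They are the 8 highest of all probe sets ranked in each tissue and are given as a description. Their r without the 2 mice comes from mice also used to rank them. It is therefore no independent check and cannot be set against that of the chaperones.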

How the data were processed

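Blood and cerebellum RNA of 16 mice was hybridised to 32 arrays. The authors quantile normalized all arrays together at the probe level and computed 1 linear intensity per probe set with PLIER in Affymetrix Power Tools (versions not given in the sources used here), and these deposited intensities were used with no offset on the log2 scale. Normalizing both tissues and both models together fixes each array's distribution of probe signals, so differences are relative to that scale. The platform annotation gave 1 symbol for 21789 of 35556 probe sets, several for 1621 and none for 12146. The 10 genes had 18 such probe sets, 1 each for 4 genes and more for 6. Probe set positions and the design's build were not used here, gene positions are those of GRCm38.p6, and probes of genes with near-identical copies (Hspa8, Hsp90aa1, Hspd1, Hspe1, Hspb1 and Dnaja1) may read those copies too, so their levels are uncertain.

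Groups came from the labels, in which the mouse number is shared by the blood and the cerebellum of a mouse. In R 4.3.3, limma 3.58.1 (lmFit, eBayes) fitted every probe set: tissue and genotype within an experiment, genotype within a tissue, WT against WT, and interactions. Thresholds were the study's unadjusted p under 0.01 and a Benjamini-Hochberg adjusted p under 0.05 over all 35556 probe sets. All tests were two-sided. Intervals are 95% from the limma fit. Single genes were also compared by an exact permutation test of the mice, and correlations by 100000 permutations within groups, in Python 3.11.15 with numpy 2.4.6, scipy 1.17.1 and pandas 2.3.3. The scripts were tested on simulated data. The number of arrays limits precision, and no detection call was used. Over both tissues the fits held no mouse term, since deviations of the blood and cerebellum of a mouse correlated by -0.13 to 0.15 (the within-mouse correlation in limma with statmod 1.5.0 was 0.01 and 0.06). Same mouse numbers in both genotypes were not treated as pairs (r -0.20 to 0.46). This r exceeded 0.1 for 2 of 3 numbers in Tsc2 cerebellum, 1 of 3 in Tsc2 blood, 1 of 5 in Fmr1 cerebellum and 0 of 5 in Fmr1 blood.

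The 10 genes, the chaperone lists and the marker lists were chosen with earlier results of these data known. All 10 genes are named. Other chaperone genes are named at an unadjusted p under 0.01 in WT comparisons (at most 4 per direction) or at an adjusted p under 0.05 in both tissue comparisons (the 4 largest per direction), and so are the 8 genes per tissue most like Hsph1. Alternatives were 16 added before log2, a mean log2 of at least 6, probe sets with 1 symbol, repeated quantile normalization, centring on the array median, trended and robust variances, all 32 arrays in 1 fit, blocks for the mouse or its number, and each mouse left out. No columns of other samples were present (0), and values of the authors' own comparisons were not used. The labels do not say that the mice are separate litters, so p-values measure the spread between these mice.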

Additional observations from a re-analysis of the deposited data

Results flagged for a closer look

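In groups of 5 mice, a value was singled out when its gap to the next, on the log2 scale, exceeded 0.71 of the group's log2 range (Dixon's test). Of 40 groups (10 genes in 4 groups of the Fmr1 experiment), 9 were, where chance gives about 1 in 20, or 2, if the groups are independent. Genes read on the same array are not, so the 9 are not separate events. They came from 3 mice, and each was the lowest of its group. The cerebellum of Fmr1-KO mouse 1 gave 5 of them. Hsph1 was 489 there against a group median of 994, Dnaja1 was 1967 against 3096, Hspa5 was 1482 against 2867, Hspd1 was 950.2 against 2652, and Hspe1 was 413 against 733. In the same array Hspb1 and Bag3 had the highest values of their group, 819 and 446, and olfactory receptor genes had a median of 178, against 46.0 to 93.1 in the other cerebellum arrays. The part of these values in the low chaperones was not tested.

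Blood of Fmr1-KO mouse 5 was low for Hspa5, 849 against 1234, and for Hspd1, 314 against 484. Blood of Fmr1 WT mouse 5 was low for Dnajb1, 187 against 310.5, and for Hsp90aa1, 747 against 1197. Without the respective mouse, the median genotype difference of the 10 chaperones on the log2 scale was 0.02 in cerebellum (without Fmr1-KO mouse 1, in place of -0.09) and 0.16 or -0.08 in blood (without Fmr1-KO or Fmr1 WT mouse 5, in place of 0.05).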

How the results depend on the processing

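With 3 or 5 mice a group, small changes could be missed, and an adjusted p under 0.05 was hard to reach in simulations. Simulated 2-fold changes passed it in 0% of cases for Tsc2+/- blood and in 11% for WT blood, but in 61% for Fmr1-KO blood. The simulations changed only few probe sets and gave each independent noise, and the adjusted cut depends on how many change. In the observed WT blood fit by limma, 29% of probe sets had an unadjusted p under 0.05, so the 11% does not describe that comparison. In the 6 genotype comparisons the count of chaperones past either threshold was 0 under every alternative run. The blocks for the mouse and for the replicate number changed no call, and with the mouse as a block 9 and 8 chaperones still passed between the tissues.

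The WT comparison in blood depended on the fit. Against 0 chaperones at an adjusted p under 0.05 and 2 at an unadjusted p under 0.01, there were 2 and 4 with 16 added before log2 (7.55% and 14.7% of all probe sets tested) or with probe sets of 1 symbol (7.04% and 15.4%), 4 and 4 with a mean log2 of at least 6 (18.8% and 19.5%) or with trended and robust variances (12.6% and 16.2%), 6 and 6 with all 32 arrays in 1 fit (24.2% and 23.1%), and 5 and 4 for Tsc2+/- against Fmr1-KO mice (29.3% and 26.1%). Leaving out 1 mouse gave 0 to 3 at the unadjusted threshold, with 0 without Tsc2 WT mouse 2.

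The median tissue difference in the Fmr1 experiment was 1.06 after a second quantile normalization and 0.82 with arrays centred on the median, and that in the Tsc2 experiment was 0.62 when centred. Dnajb1 in the Fmr1 experiment turned to -0.49 and -0.43 under these settings. Hspe1 in the Tsc2 experiment fell short, at 0.41 and 0.43. The 1 chaperone with a genotype effect that differed between models in blood became 0 under 6 settings (16 added, a mean log2 of at least 6, both rescalings, trended and robust variances, all arrays in 1 fit), and 0 to 1 with 1 mouse left out. With 1 mouse left out, the median in Tsc2+/- blood ran from -0.056 (without Tsc2 WT mouse 1) to 0.24 (without Tsc2 WT mouse 3). Of 9 relations with Hsph1 that passed, 1 passed after a second quantile normalization, and 0 to 10 passed with 1 mouse left out (0 without Fmr1-KO mouse 5 or Fmr1 WT mouse 4). The cause of these shifts was not tested.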
